A study of Mus musculus with 4 samples.

Results

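The imprinted growth gene loci were the regions around 10 mouse genes that are expressed mainly from 1 parental copy and act on growth: H19, Igf2, Igf2r, Meg3, Dlk1, Peg3, Mest, Plagl1, Cdkn1c and Grb10. A peak of open chromatin belonged to a locus when it overlapped the gene, the 10 kb upstream of it or the 5 kb past its end in GENCODE M21, and 65 of the 128055 peaks of the table did. Within 1 kb of any annotated transcript start of the gene lay 29 of them, called promoter peaks here, and the other 36 were exonic (9), intronic (15), upstream (8) or downstream (4). The signal came from ATAC-seq, in which a transposase cuts accessible DNA, of mesenchymal stem cells (MSCs) that the labels call bone-marrow MSCs. They came from mice of 3 to 5 months, were grown in α-MEM medium, passaged once and sorted. The strain was C57BL/6N. The groups were hypoxia (2% O2) and normoxia (21% O2), with 2 libraries each from separate experiments. The cells were a sorted, cultured population and every value is a bulk average, so that fewer cells with an open site and less opening per cell cannot be told apart. Both chromosomes of an inbred mouse carry the same letters, so the maternal and paternal copies cannot be told apart either.

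An imprinted gene keeps a mark from the egg or the sperm, usually DNA methylation at a CpG-rich imprinting control region, and is then read from the copy that is unmethylated there or that the control region leaves active. In most tissues Igf2, Dlk1, Peg3, Mest and Plagl1 are read from the paternal copy and H19, Meg3, Igf2r, Cdkn1c and Grb10 from the maternal copy. Igf2 is a fetal growth factor, Igf2r the receptor that carries it to lysosomes, Grb10 an adaptor that dampens insulin and IGF receptor signalling, and Cdkn1c an inhibitor of cyclin-dependent kinases. Plagl1 and Peg3 are zinc finger proteins, Mest is a member of the hydrolase fold family, Dlk1 is a Notch-like membrane protein known as a brake on adipocyte formation, and H19 and Meg3 are long non-coding RNAs. DNA-binding factors read these regions: CTCF binds the unmethylated control region upstream of H19, YY1 binds repeats in the first intron of Peg3, and ZFP57 binds the methylated form of TGCCGC and protects imprints.

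Short cores of motifs known from imprinting control regions were searched in the open peaks. A core of the CTCF motif was read on both strands, and among the 65 peaks only the 5.1-kb peak over the start of H19 (mm10, chr7:142577301-142582400) held it, with 3 matches. The matches lay 3904, 2634 and 2179 bp upstream of the H19 start, and each is printed on the strand of H19 with 20 bases on either side, because CTCF is known to bind upstream of H19. The capitals mark the core that was searched, whose letters were fixed but for 2 free positions.
H19 upstream match 1: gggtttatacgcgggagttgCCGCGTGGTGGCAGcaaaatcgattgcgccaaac
H19 upstream match 2: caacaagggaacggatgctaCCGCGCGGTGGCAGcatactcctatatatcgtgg
H19 upstream match 3: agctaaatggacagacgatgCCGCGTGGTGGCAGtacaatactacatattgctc
Of the 2116 peaks of like width 0.0473% held as many, a share made up by the H19 peak itself, which is counted among them. Of 32851 RefSeq promoters 0.0365% held any, and of nuclear peaks 0.0312%. Other forms of the CTCF motif were not searched, so the other members may hold them.

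The Peg3 peak (chr7:6726801-6731000, over the first exon and first intron, with the start of Usp29 on the other strand) held 12 matches to the YY1 core GCCATNTT, as many as in 0.0316% of 3168 peaks of like width. That share was made up by the Peg3 peak itself, which is counted among them. The 300 bases with most matches (chr7:6727672-6727971, minus strand), centred 2609 bp inside the gene, are shown because 3 copies stand there in the same orientation, in capitals.
Peg3 first intron: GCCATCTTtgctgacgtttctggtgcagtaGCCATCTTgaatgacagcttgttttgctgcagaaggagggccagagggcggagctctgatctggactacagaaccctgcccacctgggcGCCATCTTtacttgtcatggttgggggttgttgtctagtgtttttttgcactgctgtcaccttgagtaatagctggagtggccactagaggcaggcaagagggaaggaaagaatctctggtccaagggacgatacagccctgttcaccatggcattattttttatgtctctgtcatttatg
At least 1 GCCATNTT was found in 6.05% of RefSeq promoters and in 20.8% of nuclear peaks.

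The ZFP57 core TGCCGC was most frequent in the Mest promoter peak (chr6:30736301-30739000), with 12 matches on both strands together, as many as in 0.0175% of 5711 peaks of like width. That share was made up by the Mest peak itself, which is counted among them. The peaks of Peg3 and of the Airn start held 8 each, those of H19 and Plagl1 6 each, the Grb10 start peak at chr11:12034301-12040300 held 5, and the CpG-rich Grb10 peak at chr11:12025401-12026900 held 4. Of peaks of like width, 0.158% held as many as Peg3, 0.928% as the Airn start, 2.03% as H19 and 0.916% as Plagl1. For the Grb10 start peak the share was 4.51% and for the CpG-rich one 0.288%. At least 1 TGCCGC was held by 17.7% of peaks as wide as the CpG-rich Grb10 peak and by 76.4% of those as wide as the Airn start peak. It was found in 11.6% of RefSeq promoters, which are shorter than these peaks. The stretches below are the densest in the Mest peak (chr6:30738060-30738359, 5 matches) and in the peak at the start of Airn (chr17:12741725-12742024, 3 matches), the antisense RNA that runs through Igf2r; GCGGCA is the same core on the other strand.
Mest: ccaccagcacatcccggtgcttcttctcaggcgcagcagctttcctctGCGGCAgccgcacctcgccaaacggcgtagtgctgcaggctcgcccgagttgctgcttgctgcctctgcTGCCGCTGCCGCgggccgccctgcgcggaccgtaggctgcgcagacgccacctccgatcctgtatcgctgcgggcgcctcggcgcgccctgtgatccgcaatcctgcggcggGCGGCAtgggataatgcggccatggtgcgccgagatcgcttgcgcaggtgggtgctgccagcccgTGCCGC
Airn start: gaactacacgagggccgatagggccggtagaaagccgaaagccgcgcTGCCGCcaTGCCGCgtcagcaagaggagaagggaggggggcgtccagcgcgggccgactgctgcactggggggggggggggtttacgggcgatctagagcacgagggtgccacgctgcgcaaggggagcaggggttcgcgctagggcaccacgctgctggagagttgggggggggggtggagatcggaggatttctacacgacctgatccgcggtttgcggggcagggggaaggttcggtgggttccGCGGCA
RefSeq (GRCm38.p6) gave a promoter for 8 of the 10 genes, all but H19 and Cdkn1c. That of Igf2r (chr17:12769657-12769956, minus strand) is shown for the hypoxia response core ACGTG, of which the Igf2r start peak held 8 matches, as many as in 1.56% of 5243 peaks of like width. In this promoter the core stands as CACGTG, which reads the same on both strands and so counts as 4 matches.
Igf2r promoter: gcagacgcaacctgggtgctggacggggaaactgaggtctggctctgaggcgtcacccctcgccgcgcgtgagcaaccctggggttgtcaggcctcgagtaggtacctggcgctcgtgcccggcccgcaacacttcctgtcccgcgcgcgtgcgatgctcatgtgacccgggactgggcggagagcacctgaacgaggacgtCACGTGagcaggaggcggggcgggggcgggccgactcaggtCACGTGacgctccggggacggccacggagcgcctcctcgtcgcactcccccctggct
That of Meg3 (chr12:109540746-109541045, plus strand) is shown because the Meg3 start peak had the lowest scaled log2 fold change of the 10 lead peaks described below. It held 1 match to the cAMP response element TGACGTCA, found in 1.79% of RefSeq promoters.
Meg3 promoter: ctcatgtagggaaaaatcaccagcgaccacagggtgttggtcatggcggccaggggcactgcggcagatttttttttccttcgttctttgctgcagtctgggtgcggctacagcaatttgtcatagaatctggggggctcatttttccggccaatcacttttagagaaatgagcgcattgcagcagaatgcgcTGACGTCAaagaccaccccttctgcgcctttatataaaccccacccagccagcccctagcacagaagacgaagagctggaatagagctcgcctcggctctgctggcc
A match describes letters in a window and not binding.

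The libraries held 26680936 to 29965523 reads, and all deposited values came out as whole reads per peak scaled by these totals. Nuclear peaks took 49.2% and 53.2% of the reads in hypoxia and 31% and 35.2% in normoxia, and the values as deposited are not corrected for this difference, whose part in the results was not tested. Of the MSC marker genes 8 of 8 had a promoter peak, with summed signals of 2135 and 2332 in hypoxia and 1186 and 1291 in normoxia. Of the blood markers 3 of 6 had one, with sums from 57.3 to 78.2, and Ptprc, Itgam and Cd3e had none. Of the endothelial markers 2 of 3 had one, with sums from 23.2 to 38.4, and Cdh5 had none.

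For each gene the peak with the highest signal per kb among those over a basic transcript start, a choice made after the values were seen, is called the lead promoter peak. Among these Peg3 stood far above the rest, with a deposited signal per kb of 125 and 149 under hypoxia, then 66.8 and 91.9. It lay at the 99.54th percentile of all promoter peaks of the table by signal per kb. Meg3 followed with 29.4 and 32.8 in hypoxia and 15.8 and 17.3 in normoxia, and its libraries did not overlap those of Peg3 or of the next gene in either group. In hypoxia Grb10, Igf2r, Plagl1, Mest, Igf2, Cdkn1c, Dlk1 and H19 came after, with mean signals per kb from 22.1 down to 10.6, and each of them overlapped its neighbour in that order. In normoxia Grb10 (13.1 ± 1.21 per kb, SD, n = 2) again followed Meg3, and Dlk1 (7.71 ± 1.46) and H19 (7.92 ± 0.183) were the lowest. By signal per kb most of these starts were modest for this table, with 8 of the 10 below the median promoter peak. By signal not divided by width, the lead peaks had a median of 52.5, beside 40.7 for all promoter peaks.

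**Figure D1:**
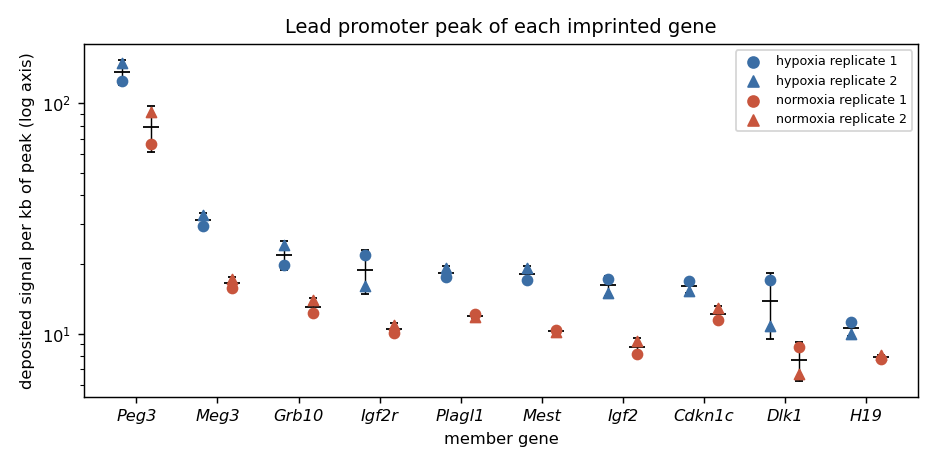
Deposited signal per kb of the lead promoter peak of each gene (log axis), with circles and triangles for replicates 1 and 2, blue for hypoxia and red for normoxia, and black bars for the mean ± SD (n = 2). Peg3 reaches 125 and 149 in hypoxia, and in all 10 genes both normoxia libraries lie below both hypoxia libraries before any further scaling.

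In the values as deposited the lead peaks of all 10 genes were lower in both normoxia libraries than in both hypoxia libraries. The ratios of mean signal, normoxia over hypoxia, ran from 0.532 for Meg3 to 0.756 for Cdkn1c. Over all members 45 of 65 peaks (69.2%) were below without overlap and 1 above, where 59.5% of all peaks of the table were below and 6.94% above. In limma on these values (log2(value + 1), two-sided, FDR under 0.01, Benjamini-Hochberg adjustment over all peaks) 16 of 65 members (24.6%) fell in normoxia, where 24% of all peaks fell, and 0 rose, where 0.391% rose. The share of members that fell was thus close to that of the whole table. The 16 were 12 of 29 promoter peaks and 4 of 36 other peaks, and they lay at Igf2, Igf2r, Meg3, Peg3, Mest, Plagl1 and Grb10. The shares of all promoter and all other peaks called on these values were not computed, so whether this split sets the loci apart cannot be said. Promoter peaks lay lower over the whole table too, with 78.7% of them below without overlap beside 59.5% of all peaks.

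To compare the loci with the rest of the genome, the libraries were scaled by relative log expression (RLE) size factors, which brought the median log2 fold change of all peaks, normoxia over hypoxia, from -0.44 to -0.0040. On this scale 0 of 65 member peaks passed limma at an FDR under 0.01 in either direction, where 4.57% of all peaks were lower and 1.77% higher, 6.34% together. By kind, 12.8% of all promoter peaks and 2.46% of all other peaks were lower. At an unadjusted p under 0.05, 9 members were lower and 4 higher, beside 16.8% and 12.5% of all peaks. edgeR on the recovered reads also called 0, where it called 5.7% of all peaks lower and 2.54% higher. So did limma with TMM factors (4.24% and 1.96% of all peaks) and with a replicate block (6.61% and 3.05%). Equal totals over peaks, under which 0.842% of all peaks were lower and 6.87% higher, called 3 members higher. Quantile normalization (0.72% and 0.905%) and cyclic loess (1.31% and 1.42%) called 2 members higher, both at Meg3. The normoxia pair was entirely below the hypoxia pair in 19 members (29.2%) and entirely above it in 17 (26.2%), beside 29.6% and 27.4% of all peaks. At an FDR under 0.05 the start peaks of Meg3 and Peg3 fell and the miRNA-bearing peak past the end of Meg3 rose, where 9.68% of all peaks fell and 5.38% rose.

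The median log2 fold change on the RLE scale was -0.27 over the 29 promoter peaks, with 19 negative, and 0.057 over the 36 others, with 15 negative. The promoter count includes 6 weak peaks, described below, that the caller gave to hypoxia only, and all 6 were negative. Without them the promoter median was -0.16, with 13 of 23 negative, and the median of all remaining 59 members was 0.018 in place of -0.049. The medians over all promoter peaks of any gene (-0.21) and all other peaks (0.052) differed in the same way. Without overlap, 13 of 29 promoter peaks (44.8%) were lower in normoxia, beside 50.7% of all promoter peaks, and 5 (17.2%) were higher, beside 15.5%. As deposited these counts were 23 of 29 (79.3%) beside 78.7%. Of the 36 others 6 (16.7%) were lower and 12 (33.3%) higher, beside 24.1% and 30.5% of all other peaks. These classes differ: 4 of the 36 lie by a start of another gene, while the other peaks of the whole table lie by no gene start. With starts of any gene counted as promoter, the member promoter median was -0.23 and that of the others 0.057. In each library the median log2(value + 1) of the promoter peaks minus that of the others came to 1.21 and 1.27 under hypoxia, then 0.999 and 0.742. The difference of -0.37 exceeded the pooled SD of 0.13, and its exact permutation p was 0.33, the smallest that 2 libraries against 2 can give. It was -0.47 without the 6 peaks given to hypoxia only and -0.19 when peaks averaging under 5 in deposited signal were left out. The medians moved with the scaling. Under quantile scaling the promoter median was -0.00020 and under cyclic loess 0.0091.

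**Figure D2:**
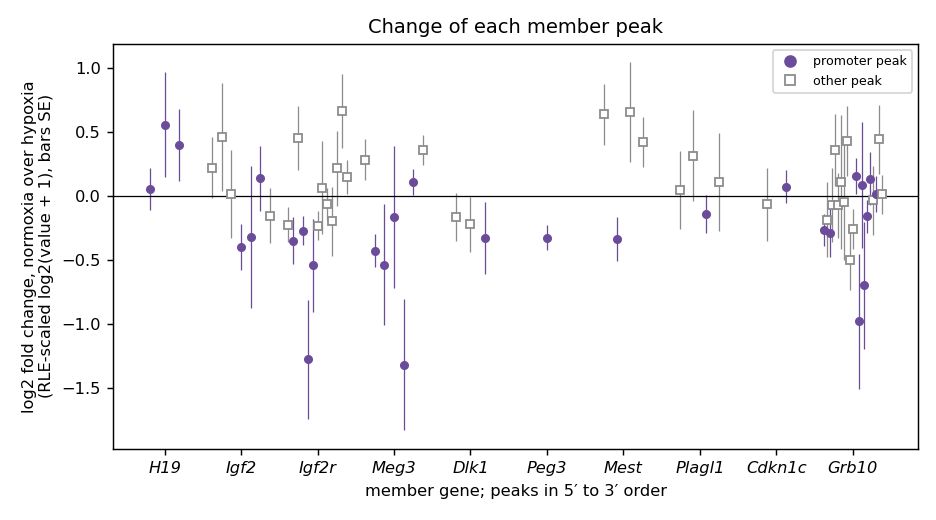
Log2 fold change, normoxia over hypoxia, of each of the 65 peaks on the RLE scale, with limma standard errors, in 5′ to 3′ order within each gene. Filled circles are promoter peaks, which lean below 0, and open squares are the other peaks, which lie on both sides.

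**Figure D3:**
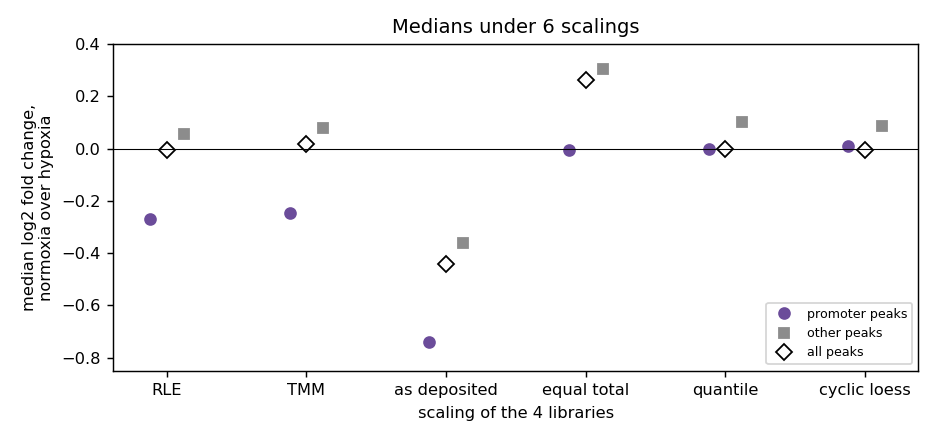
Median log2 fold change of the promoter peaks, the other peaks and all peaks of the table under 6 scalings of the libraries. The promoter median lies below that of the other peaks in each, from -0.74 against -0.36 as deposited to 0.0091 against 0.087 under cyclic loess.

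A share within a locus is the same under any single factor per library, such as RLE, TMM or equal totals, while quantile normalization and cyclic loess can move the peaks of one locus by different amounts. The lead promoter peak took a smaller share of the summed signal of its locus in both normoxia libraries in 6 of the 9 loci with more than 1 peak, beside 52.6% of 14371 genes treated alike. At Mest, which had the widest shift, the share was 50.6% and 53.1% under hypoxia, then 39.5% and 33.5%. At Igf2 it was 41.9% and 35.6%, then 30.7% and 31.2%. At Meg3 it was 21.0% and 23.0%, then 15.5% and 15.3%. H19, Plagl1 and Grb10 were also lower in both normoxia libraries, by 2.2 to 5.6 percentage points of the mean, while Igf2r, Dlk1 and Cdkn1c overlapped. None can pass an exact permutation test at this size (p = 0.33 for each of the 6, 0.50 after adjustment over the 9 loci).

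**Figure D4:**
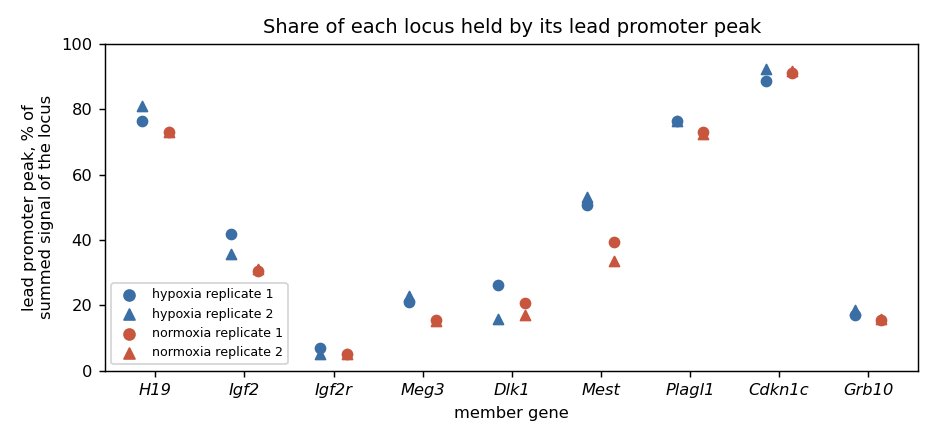
Percent of the summed deposited signal of each locus that its lead promoter peak held, by library. The normoxia points lie below the hypoxia points at H19, Igf2, Meg3, Mest, Plagl1 and Grb10, and overlap them at Igf2r, Dlk1 and Cdkn1c; Peg3 has a single peak and is not drawn.

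At Meg3, on chromosome 12, the start of the gene and the sequence past its end had scaled values of opposite sign. The Meg3 start peak (chr12:109540401-109544800) had a deposited signal of 129 and 145 under hypoxia, against 69.7 and 76.1 under normoxia. Both normoxia libraries stayed lower after RLE scaling (log2 -0.43, SE 0.13, limma adjusted p 0.0210, or 0.221 by eBayes without trend and robust). A peak of 27.4 kb covered the rest of the gene (chr12:109546001-109573400), one of the widest of the table at the 99.97th percentile, with 282 and 269 in hypoxia and 206 and 221 in normoxia. It counts as a promoter peak because further Meg3 starts lie in it, and its scaled log2 value of 0.11 did not pass (SE 0.10, adjusted p 0.515). A weak promoter peak before it (chr12:109545501-109545700) held 3 and 4 reads, then 0 and 6 (log2 -0.16). A 16-kb peak past the 3′ end (chr12:109575201-109591200) had 151 and 154, then 132 and 151, so the deposited values were nearly level where most of the table fell. On the RLE scale it was higher in both normoxia libraries (log2 0.36, SE 0.12, adjusted p 0.0312). The start peak over this downstream peak gave ratios of 0.857 and 0.936 under hypoxia, then 0.528 and 0.504. The ratio of the start peak to the body peak was 0.460 and 0.537, then 0.338 and 0.345. A single factor per library leaves both ratios as they are, and the groups did not overlap in either (exact permutation p = 0.33). Cyclic loess, which is no single factor, gave log2 values of -0.17 for the start peak, 0.51 for the body peak and 0.68 for the downstream peak.

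The 2 wide peaks carry the start of the large miRNA cluster of this locus. By RefSeq position the downstream peak held 8 miRNA hairpins with 15 mature miRNAs and 14 seeds, and the body peak held 2 hairpins, miR-770 and miR-673. The mature sequences below show what these peaks encode, with the seed (bases 2 to 8) in capitals. The first 2 are from the body peak and the rest from the downstream peak, where the 3p arms of the paired miR-3070 hairpins share the seed GGUGCUA.
mmu-miR-770-5p: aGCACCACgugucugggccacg
mmu-miR-673-5p: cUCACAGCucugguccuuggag
mmu-miR-337-3p: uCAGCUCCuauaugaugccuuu
mmu-miR-431-5p: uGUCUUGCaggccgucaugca
mmu-miR-3070-3p: uGGUGCUAccgucagggguaga
mmu-miR-3070-2-3p: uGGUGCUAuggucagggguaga
The levels of the miRNAs themselves were not measured here. Dlk1 was faint beside Meg3: its start peak (chr12:109452601-109453800) had 20.5 and 12.9 in hypoxia and 10.5 and 8.01 in normoxia, and the scaled libraries overlapped. Upstream of it a pair of peaks had higher signals, from 23.0 to 41.1 in hypoxia and from 15.4 to 24.7 in normoxia, with log2 fold changes of -0.16 and -0.22 that did not pass. A peak of 4 kb centred 10.6 kb before Meg3 had 47.1 and 47.9, then 38.6 and 45.1 (log2 0.28, SE 0.16, adjusted p 0.244).

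**Figure D5:**
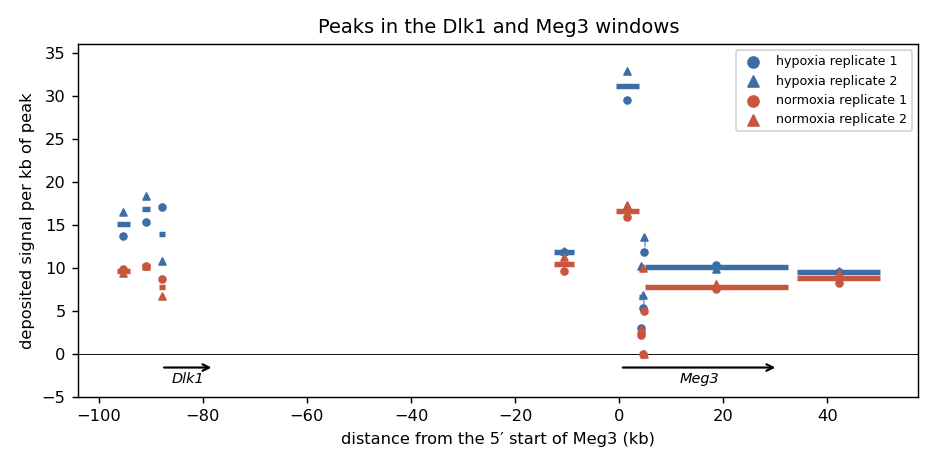
Deposited signal per kb of the peaks in the Dlk1 and Meg3 windows against distance from the Meg3 start (kb). Horizontal bars span each peak at the group mean, points are the 4 libraries, and arrows are the genes; the groups lie apart at the Meg3 start (31.1 against 16.6 per kb) and nearly meet over the downstream peak (9.55 against 8.84).

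Peg3 had 1 peak, the most intense of the members, with deposited signals of 526 and 627 in hypoxia and 280 and 386 in normoxia. After RLE scaling its log2 value was -0.32 (SE 0.098, limma adjusted p 0.0235, or 0.376 by eBayes without trend and robust), with both normoxia libraries lower. This value rests on the choice of library and scaling. Without normoxia replicate 2 it was -0.49 and without normoxia replicate 1 -0.15, effect sizes alone since a single normoxia library remained. Under cyclic loess it was 0.16 (limma adjusted p 0.197). The peak spans a start shared by Peg3 and Usp29, so its signal belongs to both.

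H19 and Igf2 are neighbours on distal chromosome 7. The 5.1-kb H19 peak, which spans the start and the 3 upstream matches printed above, had 57.3 and 51.0 in hypoxia and 39.7 and 41.1 in normoxia. On the RLE scale the libraries overlapped (log2 0.056, SE 0.16, adjusted p 0.857). The H19 peak at chr7:142576501-142577000 lay over its exons, and that at chr7:142574201-142575600 mostly past its 3′ end. They held 7 to 34 reads a library, with log2 values of 0.56 and 0.40. The Igf2 lead peak (chr7:142658501-142661300, near the start of the antisense RNA Igf2os too) had 48.5 and 42.2, then 22.9 and 26.0, and was lower in both scaled normoxia libraries (log2 -0.40, SE 0.18, adjusted p 0.139). The neighbouring Igf2 promoter peak (chr7:142656001-142658300) was 14.9 and 16.7, then 14.2 and 11.0 (log2 0.14, SE 0.25). By deposited signal, which grows with the width of a peak, the first of the other Igf2 peaks lay downstream of its end (chr7:142646201-142647400) and had 24.4 and 28.6, then 14.6 and 19.7 (log2 -0.15). An intronic peak (chr7:142663801-142664400) and an upstream one (chr7:142675301-142676800) came next by that measure, with log2 values of 0.018 and 0.22.

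The Igf2r locus had 13 peaks. The start peak (chr17:12767701-12770500) had 61.2 and 44.9, then 28.1 and 30.7, with a scaled log2 of -0.35 (SE 0.18, adjusted p 0.199). The peak with the start of Airn (chr17:12737101-12745900, in intronic and exonic sequence of Igf2r on the other strand) was stronger, with 227 and 221, then 124 and 151 (log2 -0.23, SE 0.11, adjusted p 0.167). Its ratio to the start peak was 3.70 and 4.92 under hypoxia, then 4.41 and 4.90, so the groups overlapped. An 11-kb peak between them, over alternative Igf2r starts (chr17:12750101-12761100), had 217 and 237, then 143 and 128 (log2 -0.27, SE 0.12, adjusted p 0.110). Without normoxia replicate 1 its log2 value was -0.41, an effect size alone since a single normoxia library remained. Of the other peaks, those at 12722501 and 12779401 had log2 values of -0.061 and -0.22, and 1 weak exonic peak (chr17:12711901-12713000) was the only member above hypoxia without overlap as deposited, with 9.20 and 8.50, then 10.1 and 11.0. A weak promoter peak (chr17:12749301-12749900) had 6.72 and 10.5, then 2.62 and 5.67 (log2 -0.54, SE 0.36), and its scaled libraries overlapped.

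Grb10 had the most peaks, 21, of which 9 were promoter peaks. The lead peak (chr11:12034301-12040300) had 119 and 145 in hypoxia and 73.5 and 83.8 in normoxia (log2 -0.27, SE 0.13, adjusted p 0.160). The CpG-rich peak downstream of it, with an observed over expected CpG ratio of 1.0 and 64.5% GC, had 35.7 and 38.1, then 22.5 and 20.7 (log2 -0.29, SE 0.19, adjusted p 0.338). Per kb the strongest Grb10 peaks lay inside the gene at starts outside the basic set: one (chr11:11939001-11940700) had 77.9 and 93.2, then 54.4 and 70.4, with a log2 value of 0.018, and one (chr11:11952201-11955100) had 120 and 134, then 75.3 and 88.1, with -0.16. The promoter peaks at chr11:11956201-11964200 (log2 0.16) and chr11:11946301-11949500 (log2 0.14) were higher in both scaled normoxia libraries. A weak one at chr11:11955701-11955900 had 0.086 and overlapped. By deposited signal, not per kb, the first of the other Grb10 peaks were exonic (chr11:11964701-11969500, 62.6 and 63.9, then 35.6 and 40.05), downstream (chr11:11925001-11929400, 58.7 and 59.2, then 40.5 and 45.05) and intronic (chr11:11972901-11973900, 23.4 and 25.8, then 13.5 and 11.0). Their log2 values were -0.26, 0.013 and -0.50, and the first and the last were lower in both scaled normoxia libraries. Scaled log2 values over the 21 peaks ran from -0.98 to 0.44, with 12 negative.

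Mest, Plagl1 and Cdkn1c each had 1 promoter peak. The Mest peak had 46.4 and 52.0 in hypoxia and 28.1 and 27.4 in normoxia (log2 -0.34, SE 0.17, adjusted p 0.194), while its 3 other peaks had positive values. The upstream one (chr6:30714401-30715600) had 13.1 and 16.7, then 15.7 and 18.4 (log2 0.64, SE 0.24, adjusted p 0.0644). The widest one past the end had 27.3 and 25.2, then 24.0 and 27.0 (log2 0.42, SE 0.20, adjusted p 0.150). The Plagl1 peak (chr10:13090001-13093800) had 66.9 and 73.1, then 46.1 and 44.7 (log2 -0.14, SE 0.15, adjusted p 0.573). Its 3 intronic peaks held 10 to 39 reads a library and had log2 values from 0.048 to 0.32. The Cdkn1c peak, 8.2 kb over most of the gene and its upstream sequence (chr7:143458801-143467000), had 139 and 126, then 94.5 and 106, and had the highest deposited ratio of the leads, with a scaled value of 0.074 (SE 0.13, adjusted p 0.744). An upstream peak of Cdkn1c (chr7:143469701-143470400) had 17.7 and 10.5, then 9.37 and 9.34 (log2 -0.066).

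The peak caller gave 6 of the 65 members (9.23%) to hypoxia only, beside 6.84% of all peaks, and 0 to normoxia only. They lay at Igf2, Igf2r, Meg3 (2 peaks) and Grb10 (2 peaks), were 200 to 700 bp wide, and all 6 abutted a wider peak given to both groups. They were weak: the one in Igf2r had 4.60 and 4.76 in hypoxia and 1.12 and 0.667 in normoxia (13, 14, 3 and 2 reads), and the narrower one in Meg3 had 10, 12, 4 and 0 reads. Their scaled log2 values ran from -1.32 to -0.32, a description only, since the caller chose them on the same libraries.

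Summed over all peaks of a locus, the deposited signal was lower in both normoxia libraries at each of the 10 genes, as it was in 87.9% of 21865 gene windows of the same kind. After RLE scaling the sums ran from a log2 ratio of -0.33 at Peg3 to 0.17 at Mest. Peg3, Dlk1 (-0.23), Igf2r (-0.15), Igf2 (-0.090) and Grb10 (-0.084) were lower in both normoxia libraries, Meg3 (0.082) and Mest higher, and H19, Plagl1 and Cdkn1c overlapped. Over all gene windows 53.6% were lower and 16.1% higher, beside 5 and 2 of the 10 loci. The exact permutation p was 0.33 at best (0.476 adjusted over the 10 loci), and with equal totals over peaks as the scaling, Dlk1, Igf2, Igf2r, Grb10 and Plagl1 turned to values between 0.057 and 0.22.

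Genes around the members were read from lists chosen with earlier results of these data known, by the same window. Of 257 peaks of other imprinted genes, 15 of them shared with the members, 14 fell and 2 rose at an FDR under 0.01 on the RLE scale, with a median log2 fold change of 0.0076. Of 230 peaks of IGF pathway genes 9 fell and 2 rose (median -0.18). Of 29 peaks of genes that maintain imprints 5 fell and 0 rose (median -0.42). Of all 128055 peaks 4.57% fell and 1.77% rose. The count turned with scaling: under cyclic loess the 3 lists together had 7 lower and 9 higher, in place of 28 and 4.

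The called peaks named here by lowest p come from these lists alone, so their place in the signalling and imprinting systems was set by the choice. Igfbp4, a secreted binder of IGFs, had an exonic peak with 217 and 201 in hypoxia and 73.1 and 86.1 in normoxia (log2 -0.91, SE 0.12, adjusted p 1.09e-05). Stc2, an inhibitor of the protease PAPP-A, had a promoter peak with 139 and 138, then 49.1 and 67.1 (log2 -0.78). In the window of Pappa, which encodes that protease and frees IGF by cutting Igfbp4, the promoter peak and 1 exonic peak fell while an intronic peak rose (11.3 and 7.14, then 19.1 and 22.4, log2 1.56, SE 0.26) and so did a second exonic peak (log2 0.65). Intronic peaks of the receptors Insr (log2 -0.58) and Igf1r (-0.54) and an exonic peak of Igfbp7 (-0.43) fell. Of the imprint factors, Zfp57 had a promoter peak with 85.6 and 94.9, then 32.6 and 42.1 (log2 -0.79, SE 0.15, adjusted p 0.000629), and Trim28, the corepressor that ZFP57 recruits, had 2 that fell (-0.56, shared with Ube2m and Chmp2a, and -0.49). Uhrf1, which guides maintenance methylation, also fell at its promoter (-0.62). Among imprinted genes outside the members, the Gnas promoter peak (chr2:174324501-174337000) had 537 and 559, then 231 and 280 (log2 -0.63, SE 0.093, adjusted p 4.50e-05), and Ube3a 355 and 367, then 164 and 219 (-0.45). In the window of Ddc, next to Grb10, the strongest call lay at the start of Fignl1 (150 and 162, then 60.0 and 72.4, log2 -0.76).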

How the data were processed

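ATAC-seq was read in 4 libraries of mouse MSCs, 2 in hypoxia and 2 in normoxia. The authors aligned reads to mm10 with Bowtie2, removed duplicates with Picard and called 1 peak set over both groups with chromstaR (bins of 300 bp, steps of 100 bp). The deposited signal per peak and library is named RPKM by the authors but is a whole number of reads scaled by the library total and not divided by width (100% of values whole within 0.01 reads), so levels were compared between peaks per kb. Whether a read can count in neighbouring peaks is unknown, so no binomial interval is given.

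Values were scaled by RLE size factors (1.135 and 1.228 in hypoxia, 0.81 and 0.886 in normoxia) and log2(value + 1) was tested with limma 3.58.1 in R 4.3.3 (eBayes with trend and robust, two-sided) over all 128055 peaks, at a Benjamini-Hochberg FDR under 0.01, with no low-value filter. Fold changes on this scale understate changes of low peaks. The function was tested on simulated data. edgeR 4.0.16 on recovered reads was an alternative. Single values per library were compared with an exact permutation test over samples, whose smallest two-sided p is 0.33. Per peak the median was 33 to 48 reads, so weak peaks carry wide errors. The limma p-values rest on 2 libraries a group and on a spread that eBayes moderates with the trend over all peaks. They do not measure the spread of a peak by its own libraries alone.

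Members and lists were chosen with earlier results of these data known. Named were promoter peaks, the 3 other peaks of a gene with the highest mean deposited signal, called peaks, peaks of 1 group only, and of the lists up to 12 genes with a called peak by p. Promoter starts came from all GENCODE M21 transcripts. Sequences came from the mm10 genome and RefSeq GRCm38.p6. The paper describes dividing the sorted cells between hypoxia and normoxia, and whether same-numbered libraries share a cell isolation is not stated. The main fit treated the libraries as unpaired, with the replicate number as a block in an alternative.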

Additional observations from a re-analysis of the deposited data

How the results depend on the processing

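The promoter minus other difference was negative under each alternative run, from -0.50 to -0.18, with no call at this size. With values as deposited 16 members were called lower. Equal totals over peaks called 3 higher (the Meg3 body and downstream peaks and the upstream Mest peak), quantile normalization 2 and cyclic loess 2 (both Meg3). An FDR under 0.05 called 2 lower and 1 higher. Leaving out 1 library left a group with 1 library, so effect sizes alone are given here. The 11-kb Igf2r peak had a log2 value of -0.41 without normoxia replicate 1, and Peg3 had -0.49 without normoxia replicate 2. TMM factors, both other pseudocounts, a mean value of at least 5, edgeR, the gene span alone and the table without mitochondrial peaks (an alternative chosen after seeing the data, as were the restriction to basic starts and leaving out peaks given to hypoxia only) called 0. With eBayes without trend and robust 0 members were called too, but so were 0 of all 128055 peaks, so that run says nothing about the members.

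The median log2 fold change of promoter peaks was -0.74 as deposited, -0.0038 with equal totals, -0.00020 with quantile normalization, 0.0091 with cyclic loess, and -0.22 to -0.12 leaving out 1 library. That of the other peaks was -0.36 as deposited, 0.30 with equal totals, 0.10 with quantile normalization, and 0.012 to 0.16 leaving out 1 library. Equal totals moved the median of all peaks to 0.26.

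Locus sums as deposited turned negative at H19 (-0.32), Meg3 (-0.40), Mest (-0.31) and Cdkn1c (-0.42). With equal totals they turned positive at Igf2 (0.20), Igf2r (0.14), Dlk1 (0.057), Plagl1 (0.22) and Grb10 (0.21). Leaving out 1 library gave -0.027 to 0.34 at H19, -0.15 to 0.011 at Plagl1 and -0.11 to 0.21 at Cdkn1c.

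Single peaks that turned as deposited were the H19 (-0.41) and Cdkn1c (-0.40) leads, the Meg3 body (-0.37) and the Meg3 downstream peak (-0.11). Under equal totals the Plagl1 lead (0.14), the Grb10 lead (0.022) and the Airn start peak (0.058) turned, under quantile normalization Peg3 (0.041) and the Airn start (0.11), and under cyclic loess Peg3 (0.16), Plagl1 (0.0091) and the Airn start (0.12). Leaving out 1 library gave -0.088 to 0.19 at the H19 lead, -0.69 to 0.032 at the Dlk1 lead and -0.064 to 0.20 at the Cdkn1c lead.

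Over the 3 gene lists the calls, 28 lower and 4 higher, became 142 and 1 as deposited, 6 and 24 with equal totals, 7 and 9 with cyclic loess, 16 and 2 with a pseudocount of 0.1, 56 and 21 at an FDR under 0.05, and 0 and 0 by eBayes without trend and robust. Quantile normalization gave 3 lower, a mean value of at least 5 gave 7 higher and edgeR 8 higher. Leaving out 1 library gave 0 to 43 lower and 0 to 4 higher, with 0 called of all peaks without either hypoxia library. The cause of these changes was not tested.

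Same-numbered libraries did not deviate together (correlation 0.011 over all peaks, 0.029 over peaks of mean value 5 or more). This correlation cannot show whether they share a cell isolation. A fit with the replicate number as a block called 0 members lower and 0 higher, and 37 lower and 13 higher list peaks. The median of promoter peaks (-0.27) and of other peaks (0.057) did not move with the block.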
